A study of Drosophila melanogaster with 2 samples.

Results

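The regions described here are Meics binding peaks inside introns, near to but not at a transcription start site (TSS). A peak was a member when its summit lay in the body of a protein-coding gene, outside every annotated exon, 501 to 5000 bp from the nearest protein-coding TSS and farther than 500 bp from every non-coding gene's TSS. Of the 7689 peaks on the dm6 build, 1893 (24.6%, Wilson 95% interval 23.7 to 25.6%) met this rule. The rule used positions and no signal value. The data came from chromatin immunoprecipitation and sequencing (ChIP-seq) with an anti-GFP antibody in 1 group, whole Drosophila melanogaster embryos of 0 to 24 hours, both sexes pooled, from a transgenic line that makes Meics with GFP at its C-terminal end. The group had 2 biological replicates, numbered 1 and 3 in the labels, and no untagged or input library was analysed here. The antibody reads the tagged protein, and whole embryos mix all cell types and stages of that day, so a peak cannot be placed in a cell type. The listed peaks were those kept after a threshold on the irreproducible discovery rate (IDR), which measures how well ranks repeat between replicates.

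Introns, above all the first intron of a gene, hold many of the enhancers of fly genes, which are short stretches where sequence-specific proteins bind and act on a promoter some distance away. A fly gene often has several alternative starts, so a site in a long first intron can lie downstream of one start and upstream of another start of the same gene. Meics, short for Meiotic central spindle, belongs to the zinc-finger proteins, and its name comes from work on male meiosis.

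The sequences at the summits of the 5 strongest members outside 1 chromosome arm are shown first, because summit sequence is AT-rich in the members as a whole. Each run is the summit base with 50 bases either side on the plus strand, from the RefSeq copy of the dm6 assembly. Capitals mark the TATA box letters TATAAA, the homeodomain core TAATTA and the word GTNACGAA on either strand. The window in ush lies upstream of the start of cbt, and the window in neb lies downstream of the start of fok.
CG11050 intron (chr2L:6612659-6612759): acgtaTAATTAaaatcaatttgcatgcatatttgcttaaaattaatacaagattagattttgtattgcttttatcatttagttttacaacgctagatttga
ush intron, cbt start (chr2L:481006-481106): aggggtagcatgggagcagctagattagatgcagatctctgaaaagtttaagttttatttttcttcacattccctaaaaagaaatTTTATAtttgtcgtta
Trl intron (chr3L:14759467-14759567): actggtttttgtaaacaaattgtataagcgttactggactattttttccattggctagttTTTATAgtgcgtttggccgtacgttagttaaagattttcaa
neb intron, fok start (chr2L:20078988-20079088): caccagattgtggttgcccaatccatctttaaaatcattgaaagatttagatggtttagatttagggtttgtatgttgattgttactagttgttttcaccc
CG32772 intron (chrX:4910309-4910409): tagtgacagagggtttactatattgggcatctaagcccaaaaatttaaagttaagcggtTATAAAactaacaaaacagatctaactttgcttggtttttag

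A word read as GTNACGAA on either strand (word A) had the highest ratio of summit to flank among the motifs that passed the test below. The 3 strongest members outside the same arm that hold it are shown with the word in capitals, 2 of them in introns of Mekk1, which encodes a kinase of the stress-activated MAP kinase cascade, and 1 in myo (myoglianin), which encodes a TGF-beta family ligand.
Mekk1 intron, upstream site (chr3R:18741728-18741828): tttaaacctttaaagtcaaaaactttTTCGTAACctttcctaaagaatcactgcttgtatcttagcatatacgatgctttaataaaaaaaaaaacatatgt
Mekk1 intron, downstream site (chr3R:18738243-18738343): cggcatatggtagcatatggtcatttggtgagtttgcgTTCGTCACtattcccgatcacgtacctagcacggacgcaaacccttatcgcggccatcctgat
myo intron (chr4:695073-695173): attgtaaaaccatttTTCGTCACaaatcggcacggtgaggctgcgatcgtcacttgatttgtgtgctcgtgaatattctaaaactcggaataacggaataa
A further pair of words, GCACAGTGG (word B) and CACTGAGA (word C), was picked after the counts of all 8-letter words had been seen. They are shown in capitals in the 2 strongest members outside that arm that hold each within 50 bp of the summit, including introns of Raf, the kinase downstream of Ras, and Ctps, the CTP synthase.
CG32767 intron, word B (chrX:5083697-5083797): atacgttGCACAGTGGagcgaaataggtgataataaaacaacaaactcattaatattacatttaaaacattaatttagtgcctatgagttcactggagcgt
Raf intron, word B (chrX:2296408-2296508): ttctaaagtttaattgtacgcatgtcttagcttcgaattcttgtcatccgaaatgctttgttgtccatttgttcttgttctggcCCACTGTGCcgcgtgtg
Ctps intron, word C (chr3L:15098945-15099045): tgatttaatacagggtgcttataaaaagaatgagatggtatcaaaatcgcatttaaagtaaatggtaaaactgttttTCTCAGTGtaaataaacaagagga
CG32264 intron, word C (chr3L:3802817-3802917): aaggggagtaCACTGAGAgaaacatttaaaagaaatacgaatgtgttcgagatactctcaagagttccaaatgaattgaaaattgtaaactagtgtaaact

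Hosts of the strongest members included genes for chromatin proteins, transcription factors and kinases. These members had high signal values in both replicates, which is largely set by picking them on the signal of the list made from both. The signal value is the strength that the authors' peak caller gave each region; its scale is not given in the sources used here, so it is used only to rank and describe regions within a list. The strongest member of all, in an intron of CG11050 and 1022 bp downstream of a start of that gene, had a signal value of 2443 in replicate 1 and 3938 in replicate 3, and 6349 in the list made from both. That intron is only 140 bp long, and the listed interval also covers exonic bases. The summit ranked 11 among all 7689 peaks. The member in the first intron of ush, which encodes a cofactor of GATA factors, lay 1368 bp upstream of the start of cbt, a Krüppel-like zinc-finger gene, and had 2251 in replicate 1 and 3833 in replicate 3. A member in Trl, the gene of GAGA factor, lay 1532 bp downstream of a Trl start with 2118 in replicate 1 and 2913 in replicate 3. The intron of neb, a kinesin-like gene, held a member with 1798 in replicate 1 and 2504 in replicate 3, at 1158 bp from the start of the nested gene fok. CG32772 had 1579 in replicate 1 and 2443 in replicate 3, and Lk6, a kinase gene of the MAP kinase pathway, had 1576 in replicate 1 and 2371 in replicate 3, at 967 bp upstream of a Lk6 start. A site inside both HmgZ and HmgD, which encode HMG-box chromatin proteins, had 1749 in replicate 1 and 1997 in replicate 3. CG9663 had 1339 in replicate 1 and 2067 in replicate 3. Tlk, the Tousled-like kinase gene, had 1262 in replicate 1 and 2057 in replicate 3. Signal values of replicate 3 were higher than those of replicate 1 in all of these, as in the lists as a whole, whose medians over the 7689 strongest regions were 111.6 in replicate 1 and 159.1 in replicate 3.

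The other 16 of the 25 strongest members had pooled signal values between 1713 and 2460. Their hosts included chif, a regulator of DNA replication, CG3726, Adf1, a transcription factor gene, CG9837, NFAT, trx, a Trithorax-group histone methyltransferase, Kdm2, a histone demethylase, apt, norpA, the phospholipase C of phototransduction, for, a cGMP-dependent kinase, CG12769, CHES-1-like, a forkhead factor, Mekk1, bmm, a triglyceride lipase, and brat, a translational repressor. All 25 were strong in each replicate taken alone, with a lowest rank of 226 in replicate 1 and 192 in replicate 3. They were picked on the signal of the list made from both, so this is a description. The nearest coding start belonged to the host gene in 23 of the 25, the summit lay in a first intron in 22, and it lay upstream of that start in 10. A listed summit stood within 500 bp of that start in 7, against 35.2% of all members. Members made up 6 of the 25 and 13 of the 100 strongest peaks of the list.

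**Figure D1:**
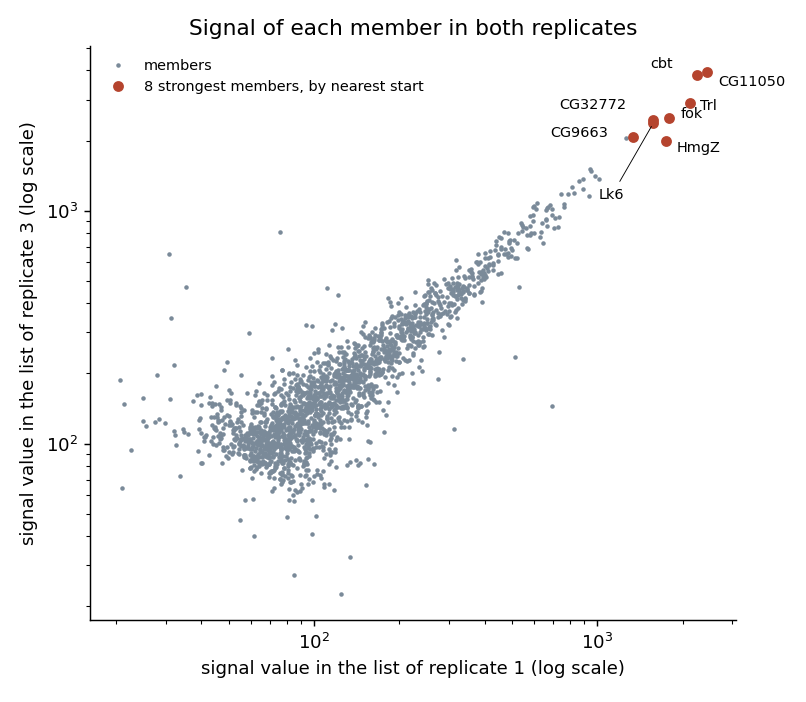
Signal value of each member in the list of replicate 1 (x axis) and replicate 3 (y axis), both on log scales. The 8 members strongest in the list made from both, labelled by the gene of the nearest start, lie at the upper right with high signals in both replicates, a place largely set by that choice. The 1878 members found in both lists rise together.

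The list was cut on how well ranks repeat between replicates, so the match of its members between replicates is largely set by that choice and is given as a description. A region of at least 1 bp overlap was present in both full replicate lists for 1878 of the 1893 members and among the 7689 strongest regions of both replicates for 1515 (80.0%). Spearman's rho between the replicates was 0.81 over the 1878 matched members and 0.82 over 7600 matched peaks of all classes, as a description across regions that share libraries. The median gap between a member's summit and that of its matched region was 11 bp in replicate 1 and 6 bp in replicate 3. When the 7689 strongest regions of 1 replicate stood in for the list, 1932 were members in replicate 1 (25.1%) and 1835 in replicate 3 (23.9%), a mean of 24.5% ± 0.892 (SD, n = 2). With 2 replicates an exact permutation test cannot give a p below 0.5, so differences between position classes are set beside the spread of the replicates and the Wilson intervals, which cover counting error only, and neighbouring summits are not independent.

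Members were 1.51 times as dense as peaks over the genome. The sequence that meets the rule covers 21.8 Mb, 16.3% of the 133.9 Mb on the 6 arms, and held 86.8 summits per Mb, against 57.4 summits per Mb over all arms. In replicate 1 the members' density was 88.6 per Mb, and in replicate 3 it was 84.1 per Mb. Intronic sequence farther than 5000 bp from a coding start (deep intronic) held 33.2 per Mb from 990 peaks, and promoters, within 500 bp of a coding start, held 216 per Mb from 3307 peaks. Intergenic sequence within 5000 bp of a coding start, which matches the members in distance but not in being transcribed, held 47.8 per Mb from 616 peaks. The members' density lay between that of promoters and those of the deep intronic and the nearby intergenic classes in both replicates.

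Their pooled signal values ran from 144.5 to 6349 with a median of 260 and an interquartile range of 185 to 425, while the median was 262 over all peaks, 229 in deep intronic peaks and 301 in promoter peaks. The order of these 3 medians was the same in each replicate: 107.5 in members, 93.2 in deep intronic peaks and 128 in promoter peaks of replicate 1, and 161.7, 139 and 173 in the same classes of replicate 3. The 768 strongest peaks of the list held 142 members, which is 7.50% of the members (Wilson interval 6.40 to 8.78%), against 9.99% of all peaks, 3.64% of deep intronic peaks (2.64 to 4.99%) and 14.7% of promoter peaks (13.5 to 15.9%).

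**Figure D2:**
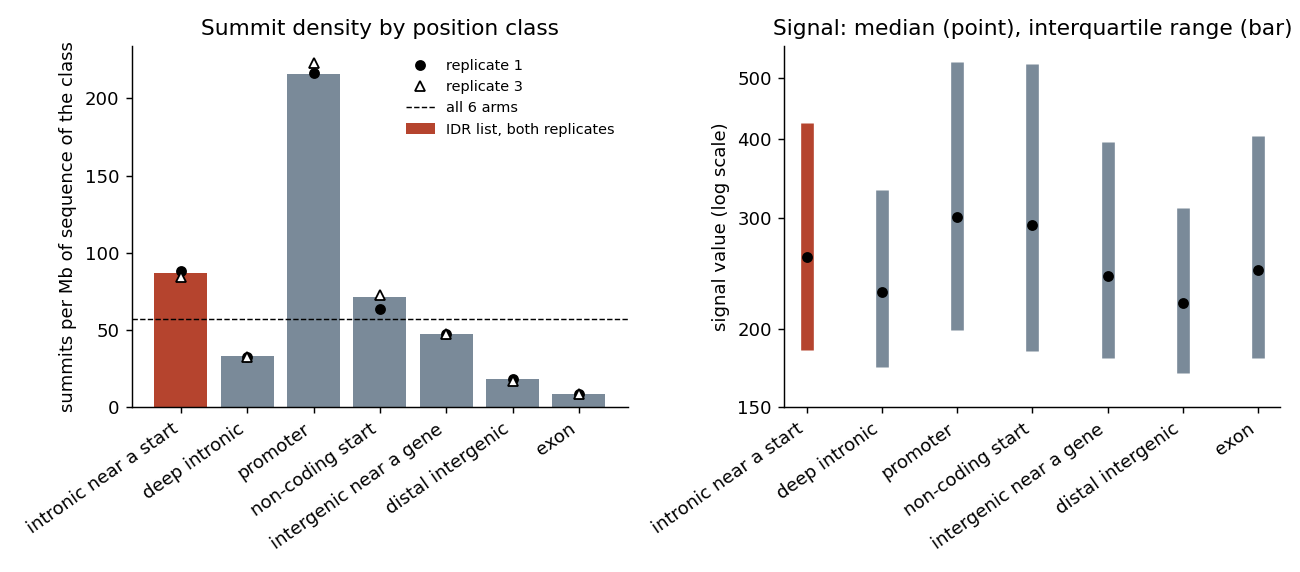
Left, summits per Mb of sequence in each position class, as bars for the IDR list and points for the 7689 strongest regions of each replicate; the dashed line is the density over all 6 arms. Right, the median (point) and interquartile range (bar) of the pooled signal value on a log scale; members (red) lie at 86.8 per Mb and a median of 260.

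Within the allowed range, members thinned out with distance from the start. Their density was 134 per Mb of eligible sequence at 501 to 1000 bp, 108 beyond that up to 1500 bp, 95.4 up to 2000 bp, 68.9 up to 3000 bp, 62.2 up to 4000 bp and 56.7 up to 5000 bp. Each step down was also present in each replicate, with 139.7 per Mb in replicate 1 and 133 per Mb in replicate 3 in the nearest bin, and 57.3 and 51.4 per Mb in the farthest bin in the same order. The median distance was 1626 bp, with an interquartile range of 960 to 2799 bp. The median pooled signal was 279 in the nearest bin and 243 in the farthest.

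The members' split between the sides of the start matched that of the eligible sequence within its interval. Of the 1893, 1282 (67.7%, Wilson interval 65.6 to 69.8%) lay downstream of their nearest coding start, while 68.1% of the eligible bases lie downstream. The density was 86.3 per Mb downstream and 87.8 per Mb upstream. In the nearest bin the upstream side was denser, at 152 per Mb upstream and 124 per Mb downstream, and this held in replicate 1 (158 upstream, 130 downstream) and in replicate 3 (151.7 upstream, 124 downstream). Beyond 1000 and up to 1500 bp the downstream side was denser, at 115 per Mb downstream and 93.5 per Mb upstream. Replicate 1 (116 downstream, 97.3 upstream) and replicate 3 (113 downstream, 88.8 upstream) shared this. The downstream side was also denser beyond 2000 and up to 3000 bp (70.6 downstream, 65.0 upstream), again in both replicates. Beyond 1500 and up to 2000 bp replicate 1 did not share this order of the list. Beyond 4000 bp replicate 3 did not. Beyond 3000 and up to 4000 bp the upstream side was denser, at 65.4 per Mb upstream and 60.7 per Mb downstream. Replicate 1 did not share that order (63.8 upstream, 66.4 downstream).

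**Figure D3:**
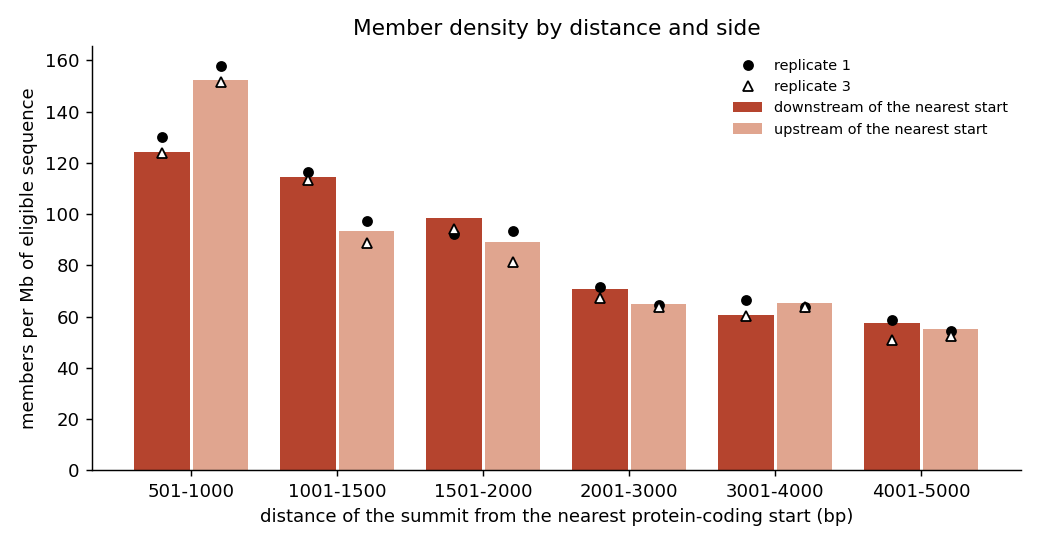
Members per Mb of eligible sequence by distance from the nearest protein-coding start, downstream (dark bars) and upstream (light bars) of it, with points for each replicate. The bars are tallest at 501 to 1000 bp, with 124 per Mb downstream and 152 per Mb upstream, and lowest beyond 4000 bp, with 57.4 per Mb downstream and 55.2 per Mb upstream.

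First introns held most members. The summit lay in the first intron of at least 1 coding transcript in 1479 members (78.1%, Wilson interval 76.2 to 79.9%), against 59.1% of the eligible bases. The share was 78.6% in replicate 1 and 77.5% in replicate 3. Eligible first-intron sequence held 115 members per Mb and other eligible intronic sequence held 46.4 per Mb. The same order was seen downstream of the start, with 111 per Mb in first introns and 38.9 per Mb in the others, and upstream of it, with 127 per Mb in first introns and 56.3 per Mb in the others. Distance from the start was not held equal between first and other introns, and its part in this was not tested. The share in first introns was 81.3% of members at 501 to 3000 bp and 75.3% beyond 1000 bp. The introns that held members had a median length of 7801 bp (interquartile range 3490 to 16409 bp), and the median distance from a summit to the nearest exon edge was 851 bp. Within 100 bp of an exon edge lay 58 members (3.06%), and the whole listed interval was free of exonic sequence in 1730. Intron length and edge distance were not set beside those of all eligible sequence, so these values are a description of the members only.

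The nearest start most often belonged to the host gene itself. In 1207 members (63.8%) the summit lay downstream of a start of its host, the usual position in a first intron. In 450 (23.8%) it lay upstream of an internal or alternative start of its host. In 161 (8.51%) the nearest start was that of another gene facing away from the summit. In 75 (3.96%) it was that of another gene that reads towards the summit but ends before it. The median pooled signal in these 4 arrangements was 259, 280, 254 and 226 in the order given.

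Starts next to a member more often had a peak of their own than starts without one. A listed summit stood within 500 bp of the nearest start of 666 members (35.2%), and over all 19252 coding start positions the share with such a summit was 24.5%. Counting each start once, 485 of the 1407 starts nearest to a member were occupied (34.5%, Wilson interval 32.0 to 37.0%), against 2550 of 11711 starts that have eligible sequence nearby but no member (21.8%, 21.0 to 22.5%). The shares were 33.7% against 21.6% in replicate 1 and 36.3% against 22.4% in replicate 3. The level depended on the bound and on the peaks counted: within 200 bp it was 18.5% (16.5 to 20.6%) against 13.5% (12.9 to 14.1%), and with peaks at or above the median signal only it was 21.4% (18.6 to 24.4%) against 13.3% (12.7 to 13.9%). Counted over members in place of starts, these settings gave 19.1% and 21.5%. Occupied starts were commoner for members downstream of the start (39.3%, 36.7 to 42.0%) than for those upstream of it (26.5%, 23.2 to 30.2%). Among members whose nearest start was that of another gene reading towards them, 3 of 75 had an occupied start. At occupied starts neither site was regularly the stronger, since the member had the higher pooled signal in 318 of 666 (47.7%), with medians of 278 for the members and 301 for the start peaks. Gene expression, promoter strength and chromatin accessibility were not measured, and their part in this was not tested.

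The 1893 members lay in 1135 host genes, which is 12.5% of the 9101 coding genes that have eligible sequence. Of these hosts 683 held 1 member, 452 held at least 2 and 38 held at least 5. The gene shn (schnurri), a large zinc-finger protein of the Dpp pathway, held most, with 16 members along 30.7 kb, pooled signals from 154 to 1142 and 14 matched in both replicates' strongest regions. CG1677 held 13 along 46.7 kb, of which 12 were so matched, with signals from 161 to 1378. The nearest start of the strongest of these was that of another gene, and 2 of the 13 lay in a first intron. Tlk held 12 along 52.0 kb, of which 10 were matched, with signals from 149 to 3307. CHES-1-like held 9 within 16.2 kb, in overlapping first introns of transcripts with different starts, all 9 matched, with signals from 314 to 1926. The chromatin gene tou held its 9 members in a single first intron, along 21.3 kb, with signals from 160 to 979.6, and no listed summit stood at the nearest start of any of them. CG32264 held 9 with signals from 157 to 533. These hosts differ in how much eligible sequence they carry, so the counts are not a ranking of preference.

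The shares of genes that hosted a member were 54.2% for EGFR, Ras and MAP kinase genes (Wilson interval 35.1 to 72.1%), 43.8% for Dpp (23.1 to 66.8%), 40.9% for Wingless (23.3 to 61.3%), 40% for Hedgehog (16.8 to 68.7%) and 26.7% for Notch genes (10.9 to 52.0%), against 12.5% of all eligible genes, which lies within the interval of Notch genes. The lists of genes were chosen with earlier results of these data known, and list genes with long introns have more room for a member, so the density per Mb of their own eligible sequence is given beside each count; over all genes it was 86.8 per Mb. Of the EGFR, Ras and MAP kinase genes, 13 of 24 with eligible sequence hosted a member (242 members per Mb), led by Lk6, by aos, a secreted inhibitor of the EGF receptor (pooled signal 967.8, rank 679 in replicate 1 and 521 in replicate 3), and by msn, a kinase of the JNK pathway (759). Of the Dpp pathway genes 7 of 16 did (200.9 per Mb), but 16 of their 22 members lay in shn, and the list without shn had 80.0 per Mb. The strongest signals were those of shn at 1142, the receptor gene wit at 633 and sog, a secreted antagonist, at 444. Of the Wingless pathway genes 9 of 22 did (106 per Mb), with the kinase gene sgg at 861, the co-receptor gene arr at 591 and the antagonist gene nkd at 390.2. Of the Hedgehog pathway genes 4 of 10 did (167 per Mb), the receptor gene ptc at 426, rdx at 272 and the ligand gene hh at 188. Of the Notch pathway genes 4 of 15 did (116 per Mb), with the co-activator gene mam at 1487, the ubiquitin ligase gene neur at 688 and numb at 251. Without mam, which held 5 of the 10 members, the density was 78.3 per Mb. The nearest start was that of another gene for the arr and mam members named here.

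Ecdysone-response genes hosted members in 11 of 17 cases and BTB transcription factor genes in 10 of 16, the highest shares of the 18 lists, but their densities of 115 and 125 per Mb were nearer to that of all genes. ImpL2, a secreted insulin-binding protein, had 545, the nuclear receptor gene ftz-f1 530.1 and br 512; among the BTB genes, Trl had 5020, psq 661 and fru 620.3. Cytoskeletal genes hosted members in 12 of 24 cases (183 per Mb), with tsr, the cofilin gene, at 1387, Kank at 1226 and Moe, the moesin gene, at 1096. Stress genes did so in 5 of 14 cases (195 per Mb), with Hsp83 at 1112, cnc at 449 and foxo at 402. Muscle and mesoderm genes stood at 8 of 23 (90.0 per Mb), led by Msp300 at 1631, kirre at 870.2 and mbc at 479.6, and at 68.9 per Mb without Mef2, the host with most of their members. Genes of nutrient and insulin signalling stood at 5 of 20 (149.6 per Mb), with the insulin receptor gene InR at 922, sgg again, and Mnt at 476. Nervous system genes were at 9 of 34 (62.0 per Mb), with elav at 708, NetB at 451 and fra at 422, and Krüppel-like and zinc-finger developmental genes at 6 of 27 (55.7 per Mb), with bowl at 505, sqz at 359 and GATAd at 356. Both of these densities lay below that of all genes. For the members of br, kirre, NetB and fra named here, the nearest start was that of another gene.

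Chromatin, cell cycle and translation genes hosted members at shares between 4.35% and 19.4%, and the intervals of these lists contained that of all genes, while the densities of all but the translation factors were above 86.8 per Mb. Polycomb and Trithorax genes hosted members in 6 of 31 cases (238 per Mb), with Trl at 5020, trx at 2179 and ph-p at 863. Insulator and promoter factor genes did so in 2 of 16, Trl and psq, with the highest density of the 18 lists (272 per Mb). Of the 10 members of that list 7 lay in psq, and without psq it had 216 per Mb. Cell cycle genes hosted members in 3 of 21 cases (136 per Mb), which were CycE at 857, E2f1 at 457 and Cdk4 at 448. Of translation factor genes only eIF4EHP, which encodes a cap-binding repressor of translation, hosted a member, 1 of 23 (35.1 per Mb), with a signal of 193. The nearest start was that of another gene for the Cdk4 and eIF4EHP members. Cytosolic ribosomal protein genes hosted none in 23 (Wilson upper bound 14.3%), and these 23 hold only 5.16 kb of eligible sequence in all, too little for this count to say anything of their density.

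Member summits were AT-rich within a GC-richer surround. The summit with 50 bp either side averaged 33.7% GC, against 41.5% GC in an equally long window 500 bp further from the start, a difference of -7.76 percentage points. The difference was -8.13 points in replicate 1 and -7.22 points in replicate 3. The 474 strongest members had a difference of -10.2 points and the 473 weakest one of -5.13 points. The strongest and weakest 483 members of replicate 1 had -10.54 and -6.10 points. In replicate 3 the strongest 459 had -9.66 points and the weakest 458 had -4.60 points. Deep intronic summits showed -8.78 points and promoter summits -7.31 points, with no test of the difference between classes. Windows of the same length laid end to end over all eligible sequence averaged 39.4% GC.

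For each motif, on both strands, summit windows that hold it were set against those 500 bp further from the start by the exact McNemar test, two-sided, with Benjamini-Hochberg adjustment over 30 motifs. In members, 5 motifs (16.7%) were enriched at summits and 5 (16.7%) depleted, while over all 7689 peaks 12 (40%) were enriched and 8 (26.7%) depleted. The test over all peaks had more pairs of windows, on which the number called depends, so these shares do not compare strength. Without replicate 1, 3 motifs were enriched and 3 depleted in members. The motifs, word A included, were chosen with earlier results of these data known, so their p values are not independent support. A match is a description of letters and does not show which protein binds.

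The letters of the TATA box, TATAAA, were in 438 member summit windows (23.1%, Wilson interval 21.3 to 25.1%) and in 216 flanking windows (11.4%), with an adjusted exact p of 6.17e-20. The motif was in 13.9% of the 197879 eligible windows of that length. It was in 22.8% of summits and 10.9% of flanks in replicate 1, and in 21.9% of summits and 10.9% of flanks in replicate 3. The strongest members that hold it were those of ush and Trl printed above. Deep intronic peaks (23.7% at summits, 11.4% in flanks) and promoter peaks (20.7% and 11.5%) had nearby shares, and the difference between classes was not tested. The homeodomain core TAATTA was in 10.5% of member summits and 5.97% of flanks (adjusted exact p = 6.5e-06), and in 8.17% of eligible windows. Its strongest holders were CG11050 and Adf1. Its shares were 10.1% and 7.98% at deep intronic peaks and 9.50% and 6.05% at promoter peaks. Word A was in 57 summits (3.01%) and 13 flanks (0.687%), with an adjusted exact p of 1.54e-06, and in 0.756% of eligible windows. Its shares were 3.16% and 0.725% in replicate 1 and 2.67% and 0.872% in replicate 3, and its strongest holders were in apt, a transcription factor gene, and Mekk1. Word A was not particular to members, with 3.12% of summits and 0.611% of flanks over all peaks. It was in 2.53% and 0.404% at deep intronic peaks and in 2.42% and 0.605% at promoter peaks. The letters TCAGT of the initiator (17.8% at summits, 14.3% in flanks, 15.4% of eligible windows, adjusted exact p = 0.0171) and a run of 8 A (8.29%, 6.18% and 7.26% in the same order, adjusted exact p = 0.0427) passed by smaller margins; their strongest holders were Lk6 and for, and Kdm2 and Mekk1. The initiator lost the call in 4 of 10 alternative settings (adjusted exact p from 0.000104 to 0.822) and the run of A in 6 (0.0144 to 0.771).

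Depleted motifs were short repeats and GC-richer words. CACACACA was in 1.11% of member summits and 3.33% of flanks (adjusted exact p = 2.79e-05) and in 2.68% of eligible windows, with its strongest holders in bun and CG32066. GAGAGAG, the repeat read by GAGA factor, was in 1.11% of summits and 2.80% of flanks (adjusted exact p = 0.00154) and in 1.51% of eligible windows, with its strongest holders in shep and apt. CAGCTG, an E-box of the kind that bHLH proteins bind, was in 3.06% of summits and 4.91% of flanks (adjusted exact p = 0.0171) and in 3.61% of eligible windows, with its strongest holders in Inos and Reph. GTGGGAA, the site of Su(H), was in 0.581% of summits and 1.58% of flanks (adjusted exact p = 0.0171) and in 1.40% of eligible windows, with Unc-115a and tws as its strongest holders. AGGTCA, a half-site of nuclear receptors, was in 1.90% of summits and 3.28% of flanks (adjusted exact p = 0.0372) and in 2.54% of eligible windows, with kuk and wde as its strongest holders. Over the 10 alternative settings CAGCTG and GTGGGAA lost the call in 4 each (adjusted exact p up to 0.174 and 0.110), AGGTCA in 6 (up to 0.690) and GAGAGAG in 1, the members beyond 1000 bp (0.0621). The lower GC content of summits moves with all of these, and its part in them was not tested.

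The promoter words DRE and M1BP site were rare in the members. The DNA replication-related element TATCGATA was in 4 member summits (0.211%) and 5 flanks (0.264%), with an adjusted exact p of 1, and in 0.215% of eligible windows. At promoter peaks it was in 100 summits (3.02%) and 0.242% of flanks (adjusted exact p = 3.53e-20). GGTCACACT, the site of M1BP, was in 1 member summit and 1 flank (0.0528% each, 0.0425% of eligible windows), against 45 promoter summits (1.36%). No test compared the classes. The BEAF-32 core CGATA was in 10.3% of member summits and 12.3% of flanks (adjusted exact p = 0.133), and in 10.8% of eligible windows, while at promoter peaks it was in 19.5% of summits and 11.9% of flanks.

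**Figure D4:**
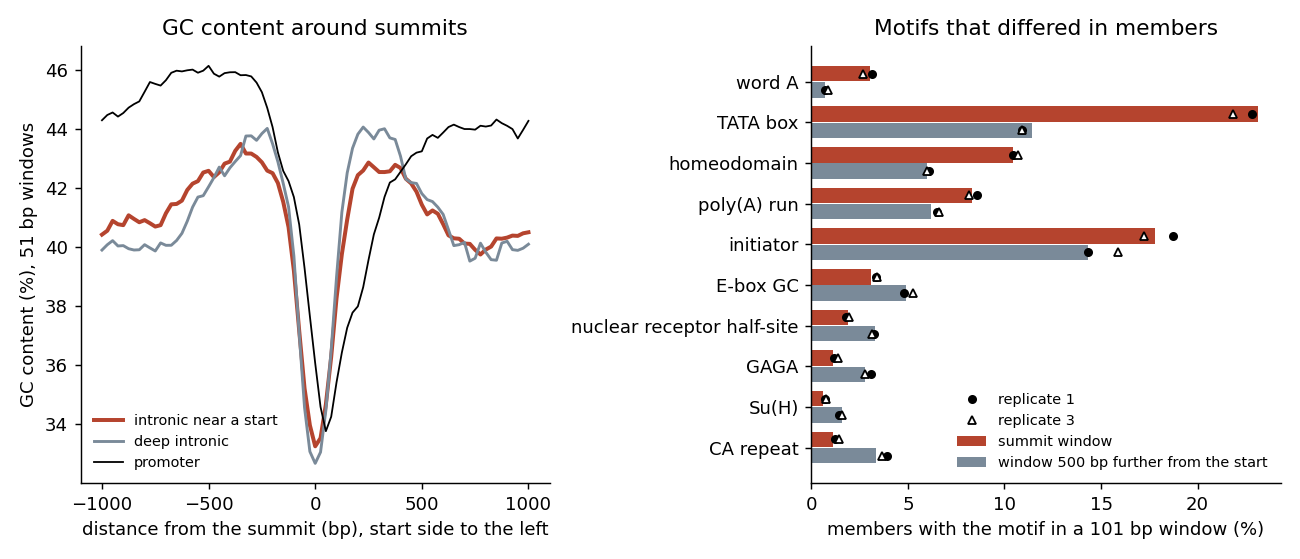
Left, GC content in 51 bp windows by distance from the summit, with the side of the nearest start to the left, for members (red), deep intronic peaks (grey) and promoter peaks (black); members fall to 33.3% at the summit. Right, share of members with each motif whose share differed, at the summit (red bars) and 500 bp further from the start (grey bars), with points for each replicate; word A is GTNACGAA.

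Of 32366 words of 8 letters, 86 (0.266%) were enriched at member summits and 13 (0.0402%) depleted, and over all peaks 4.24% of words were enriched and 4.87% depleted. The test over all peaks had 7689 pairs of windows and that of members 1893. The number called depends on the number of pairs, so these shares do not compare strength. The counts in members depended on the setting, from 32 to 311 words enriched and from 3 to 98 depleted over the alternatives. Of the 86, 78 had at most 1 G or C, as in TTTAAAAA, which was in 111 summits and 32 flanks (adjusted exact p = 2.69e-07). TATTTACA, another of them, was in 63 summits and 11 flanks (adjusted exact p = 3.44e-06), with 60 and 12 in replicate 1 and 61 and 14 in replicate 3. Only 4 enriched words had 3 or more G or C. GTGACGAA, a form of word A, was in 31 summits and 4 flanks (adjusted exact p = 0.0033) and in 0.193% of eligible windows. CACAGTGG was in 32 summits and 5 flanks (adjusted exact p = 0.00546; 0.401% of eligible windows) and CACTGTGC in 27 summits and 5 flanks (adjusted exact p = 0.0398; 0.426%), and these overlap in word B read on opposite strands. CACTGAGA, word C, was in 27 summits and 4 flanks (adjusted exact p = 0.0169; 0.314%). In replicate 1 taken alone, CACAGTGG (28 and 10, adjusted exact p = 0.327) and CACTGAGA (20 and 7, adjusted exact p = 0.566) did not pass, whereas all 4 passed in replicate 3. All 13 depleted words had 3 or more G or C, led by GCAGCAGC with 2 summits and 33 flanks (adjusted exact p = 9.14e-05), a repeat common in fly coding exons. With flanks that hold exonic bases left out, which also leaves fewer pairs of windows, 8 words were depleted. The part of exonic sequence in the flanks was not tested.

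These words differed in where they lay relative to the summit, which windows of presence or absence do not show. Word A was most frequent within 50 bp of the summit, with 37 occurrences within 25 bp of it (383 per Mb scanned), 23 at 26 to 50 bp (243 per Mb), 7 at 76 to 100 bp (74.0 per Mb) and 27 at 400 to 500 bp (71.3 per Mb). Word B was less frequent on the summit than beside it. It had 6 occurrences within 25 bp (62.1 per Mb), 25 at 76 to 100 bp (264 per Mb) and 34 beyond that up to 150 bp (179.6 per Mb). At 400 to 500 bp it had 12 (31.7 per Mb), a lower frequency than on the summit. Word C had 6 within 25 bp (62.1 per Mb), 27 at 51 to 75 bp (285 per Mb), 28 at 76 to 100 bp (296 per Mb) and 4 at 400 to 500 bp (10.6 per Mb). In replicate 1 word A had 35 within 25 bp and 37 at 26 to 50 bp, and in replicate 3 it had 38 and 14, so the bin with most occurrences differed. In replicate 1 word B had 5 within 25 bp and 26 at 76 to 100 bp, and word C 8 within 25 bp and 30 at 51 to 75 bp. In replicate 3 word B had 6 within 25 bp and 27 at 76 to 100 bp, and word C 8 within 25 bp and 23 at 51 to 75 bp. TATAAA had its highest frequency within 25 bp, with 307 occurrences (3180 per Mb), against 1286 per Mb at 400 to 500 bp.

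Within 150 bp of the summit, 86 members (4.54%) held word B and 100 (5.28%) held word C, and no member held both, while 1 held words A and C. Whether these counts are low for the shares was not tested. At deep intronic peaks the shares were 5.05% for word B and 7.47% for word C, and at promoter peaks 3.57% for word B and 1.94% for word C, again with no region holding both. The distances were measured after the words had been picked from the same regions, so they are a description and carry no test.

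**Figure D5:**
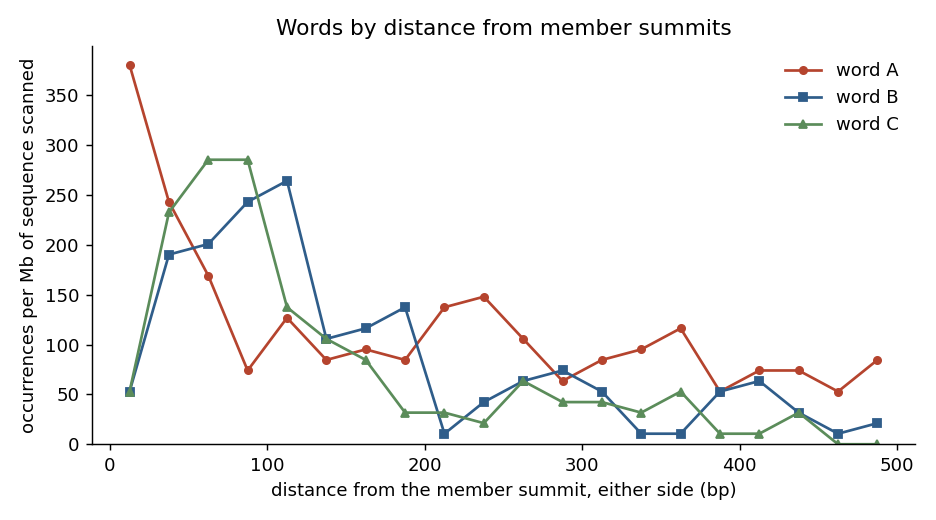
Occurrences per Mb of scanned sequence of word A (GTNACGAA), word B (GCACAGTGG) and word C (CACTGAGA) on either strand, in steps of 25 bp of distance from the member summits, either side. In this list word A is highest at the summit, and words B and C are lower there than between 50 and 125 bp from it, where they are highest.

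At the limits of the rule, the members nearest the inner bound were in SREBP (501 bp, pooled signal 1149) and capu (501 bp, 261), and the intronic summits just outside it were in CG10365 (500 bp, 369) and jar (500 bp, 1058). At the outer bound, the members were in Pdk (4989 bp, 409.7) and Ac13E (5000 bp, 582), and the summits just outside were in NetB (5011 bp, 233) and SLO2 (5012 bp, 212). The signals on the 2 sides overlapped at the inner bound, and at the outer bound both members were above both summits outside. Of the members, 132 lay within 230 bp of a stronger summit, 36 shared a listed interval with another summit, 97 lay in more than 1 coding gene and 2 lay in an annotated transposable element.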

How the data were processed

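Peak lists on the dm6 build were used. For both replicates the authors deposited 30000 regions each that had entered the IDR step, background included, and a thresholded list of 7689 regions. The deposited signal value of each region is a score from the authors' peak caller. Aligner, caller and IDR threshold: not given in the sources used here. The read depth is unknown, so intervals cover the counting of regions only. Fragments were 200 to 800 bp per the labels. The lists on dm3 were not used.

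The summit was the start plus the deposited offset, counted from 1. Genes and starts came from Ensembl's annotation of BDGP release 6.54, which is on the dm6 assembly, without its transposable elements, and sequence from RefSeq's copy of it. Base by base, every position of the 6 arms was put in a class (promoter, non-coding start, exon, intronic near a start, deep intronic, intergenic near a gene, distal intergenic), and densities are summits over bases of the class. A first intron is the first of any coding transcript. Windows of 50 bp either side of the summit and 500 bp further from the start were compared by the exact McNemar test with Benjamini-Hochberg adjustment over 30 motifs or over all 8-letter words. For a replicate alone, its 7689 strongest regions stood in for the list. Shares have Wilson 95% intervals.

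The members, the gene lists and the motifs were chosen with earlier results of these data known. Named were the hosts and nearest starts of the 25 strongest members, the 5 hosts with most members (a tie gave a further one), up to 3 hosts per gene list by strongest member, up to 2 strongest holders of each called motif, and the summits nearest each bound. A gene that the rule names is not reported here. Of 522 gene-list symbols, 28 were not found in the annotation. Words B and C, TTTAAAAA, TATTTACA and GCAGCAGC were named after their values were seen. Before use, the tests recovered a motif and a word planted in simulated sequence. Alternatives were each replicate alone, signal at or above the median, other distance bounds, intervals free of exons, no summits within 230 bp of a stronger one, other windows and flanks, and a 200 bp bound for an occupied start. Versions were matplotlib 3.10.9, scipy 1.17.1, pandas 2.3.3 and numpy 2.4.6 on Python 3.11.15.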

Additional observations from a re-analysis of the deposited data

How the results depend on the processing

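No paired analysis was possible because there was 1 group. Without replicate 1 or without replicate 3, the share of members was 23.9 to 25.1%, the density ratio 1.46 to 1.54, the part of the members that fell among the 768 strongest peaks 7.40 to 7.85%, the downstream share 67.79 to 67.81%, the members with an occupied start 34.9 to 37.1%, the enriched motifs 3 to 7, the depleted motifs 3 to 4, the enriched words 71 to 114 and the depleted words 11 to 17. With signal at or above the median of the list, there were 940 members, 66.2% of them downstream, 80.6% in first introns and 98.5% matched; 21.5% had a start occupied by such a peak, the GC difference was -9.54 points, and 32 words were enriched and 8 depleted. With over 1000 to 5000 bp, the share was 17.9%, the density ratio 1.34, the part among the strongest 6.60%, 70.3% downstream, 37.1% occupied, 75.3% first introns, 3 motifs depleted, 48 words enriched and 8 depleted. With 501 to 3000 bp these were 19.1%, 1.74, 8.22%, 67.6% downstream, 81.3% first introns, 3 motifs enriched, 3 depleted, 40 words enriched and 3 depleted. With whole intervals outside exons, the share was 22.5%, the density ratio 1.38 and the downstream share 66.2%. The list and the eligible sequence were left unchanged in that setting, so its lower share and ratio follow from the smaller count of members alone. Without close summits, 67.9% were downstream. With a 200 bp bound, 19.1% of members had an occupied nearest start. Summits within 100 bp gave 77.1% matched. The window of 100 bp either side gave 311 enriched and 98 depleted words. The flank towards the start gave -8.71 points of GC, 159 enriched and 47 depleted words, and flanks without exonic bases gave -6.92 points, 3 depleted motifs, and 53 enriched and 8 depleted words. The word counts, other than those of that wider window and of flanks without exonic bases, and transposable elements counted as non-coding genes (1875 members, ratio 1.59), the counts of starts under other bounds and the lists without 1 host were added after the data were seen. The TATA box, homeodomain, word A and CA repeat differences passed in 10 of 10 alternatives, the GAGA repeat in 9 (not over 1000 to 5000 bp), the initiator, E-box and Su(H) site in 6, and the nuclear receptor half-site and the run of A in 4. No direction turned in these alternatives. The causes were not tested.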

Other observations

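Over the arms, the density of members per Mb of eligible sequence was 77.8 on 2L, 84.9 on 2R, 92.9 on 3L, 90.2 on 3R and 91.3 on X. The small chromosome 4, which is largely heterochromatic, held 3 members in 0.276 Mb (10.9 per Mb, the same in each replicate), 1 of them the strong member of myo, and its 21 peaks of all classes came to 15.6 per Mb of the whole arm. The median gap between neighbouring members was 19273 bp, and 247 of 1887 gaps (13.1%) were under 1000 bp. The 474 strongest members had an occupied nearest start in 39.5% of cases (Wilson interval 35.2 to 43.9%) and the 473 weakest in 31.3% (27.3 to 35.6%); the shares were 37.9% and 33.7% in replicate 1 and 39.7% and 34.3% in replicate 3, with intervals that overlap in both.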
